A study of Arabidopsis thaliana with 4 samples.

Results

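Across the 4 arrays of a DNA damage experiment in Arabidopsis thaliana, 4 genes whose products are annotated as binding or acting on lipids were followed: AT4G17470, AT1G14960, AT3G26460 and AT5G23830. They were picked because their signal was low in untreated ku80 plants or high in bleomycin-treated ku80 plants, with no numeric threshold. All differences that involve a ku80 array therefore describe how the genes were chosen and are not evidence for a pattern. They are 4 of 13286 genes that could be named on the array. Each had 1 probe set, of a design meant to match that gene alone, among 22746 gene probe sets, and all 4 were measured.

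The groups were ku80 plants given bleomycin at 1 mg per litre for 3 days, ku80 plants without the drug, wild type plants given the same dose for 3 days, and wild type plants without the drug. The ku80 line carries a T-DNA insertion in AT1G48050, and all plants, mutant and wild type, were of the Ws-2 accession, at growth stage 1.06, grown at 23 °C with 16 hours of light. Each group was 1 ATH1 array hybridised with RNA from 20 pooled whole plants, so no group was replicated, and no p-value or spread between pools can be given. KU80 had no probe set in the gene tables used here, so its transcript could not be used to check the insertion. In pooled whole plants, fewer cells of a type and less RNA per cell cannot be told apart.

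Bleomycin breaks DNA strands, and KU80 forms part of the Ku dimer, which binds broken DNA ends for non-homologous end joining. AT1G14960 and AT3G26460 encode Bet v I-like proteins, a plant family named after the major birch pollen allergen, in which a hydrophobic pocket can hold lipids, steroids or other small ligands. It includes the major latex protein (MLP) group and pathogenesis-related proteins. AT5G23830 encodes a protein with an MD-2-related lipid-recognition (ML) domain, a fold that in animals is found in proteins that bind cholesterol or bacterial lipid. AT4G17470 belongs to the palmitoyl-protein thioesterase family, whose mammalian enzymes remove fatty acyl groups from proteins during lysosomal breakdown.

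Intensities below were divided by a factor per array, and values under a floor of 28.0 (the 40th percentile of all scaled values) were raised to it before log2 was taken. Probe sets that exceeded the floor on 1 array or more, 15334 in all, were taken as measured, and a difference of at least 2-fold was counted as a call. All 4 genes lay above the floor on all 4 arrays, but AT1G14960 and AT3G26460 only just did so in untreated ku80. The array of untreated ku80, on which 3 of the 4 genes were lowest by far, also stood apart in its scanner values. Its mean background was 95.8 and its mean noise 5.34, against 105 to 107 and 6.91 to 8.02 on the other 3 arrays. The part of this in the results was not tested. Its scaling factor was 1.00, within the range of 0.977 to 1.04 over the 4 arrays.

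AT4G17470, the thioesterase-like gene, had a scaled intensity of 849 in ku80 with bleomycin and 48.7 in ku80 without it, and of 996 in wild type with bleomycin and 376 in wild type without it. Untreated ku80 was far below the other 3 arrays, and the treated ku80 plants were close to the treated wild type plants. AT1G14960, the first Bet v I-like gene, stood at 179 in treated ku80, 30.4 in untreated ku80, 220 in treated wild type and 234 in untreated wild type. Its level was alike on 3 arrays and near the floor on the fourth, untreated ku80. AT3G26460, the second Bet v I-like gene, gave 99.0 in treated ku80, 30.0 in untreated ku80, 121 in treated wild type and 167 in untreated wild type, again with untreated ku80 alone near the floor. The ML-domain gene AT5G23830 had another profile. It stood at 756 in treated ku80, 135 in untreated ku80, 251 in treated wild type and 262 in untreated wild type, so that treated ku80 was the high array and untreated ku80 the low one.

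**Figure D1:**
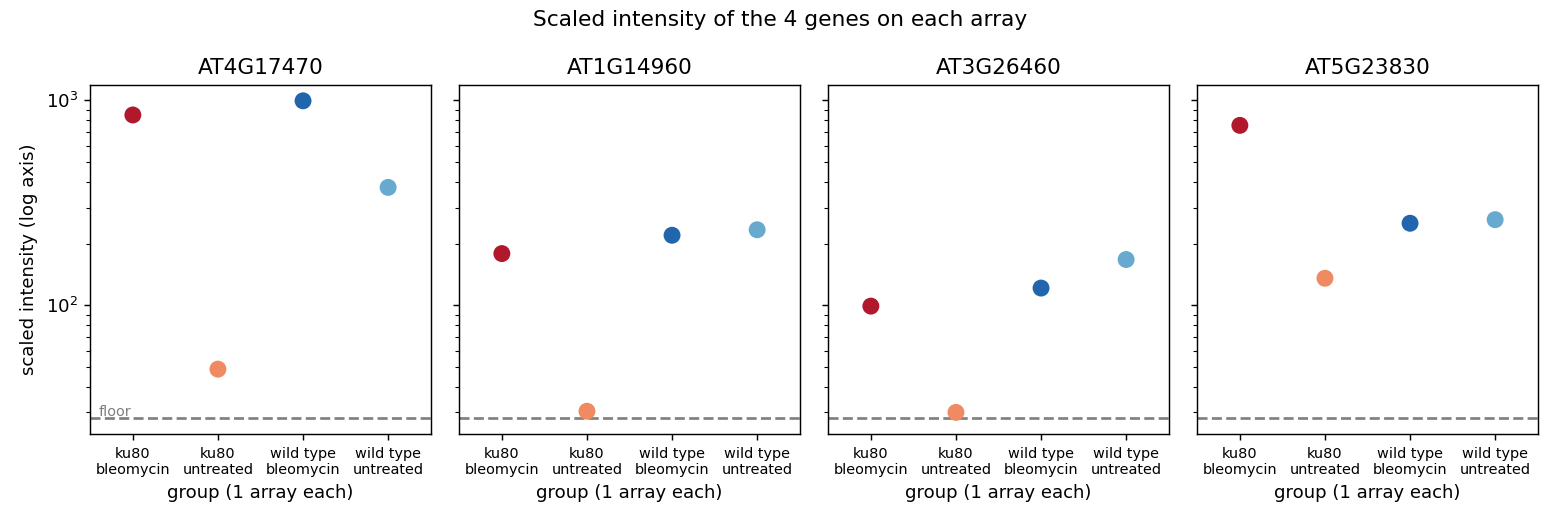
Scaled intensity (log axis) of each of the 4 genes on each array, 1 point per array with no error bar because each group had 1 array; the dashed line is the floor of 28.0. AT4G17470, AT1G14960 and AT3G26460 are low in untreated ku80 alone, while AT5G23830 is highest in treated ku80 (756).

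Within ku80, all 4 genes were at least 2-fold higher with bleomycin than without, where 2.49% of measured probe sets were higher and 5.61% lower by that much. The genes were chosen on these values, so nothing is read from this count. AT4G17470 was 17.4-fold higher (log2 4.12) and had rank 2 from the top among the 15334 measured probe sets. AT1G14960 was 5.89-fold higher (rank 20), AT5G23830 5.58-fold (rank 26) and AT3G26460 3.30-fold (rank 94). The median log2 difference of the 4 genes was 2.52, and that of all measured probe sets was 0.00. The smallest of the 4 differences rested on a level near the floor: with the floor at the 60th percentile (intensity 63.7), AT3G26460 was higher by at least 0.64 and AT1G14960 by at least 1.49 on the log2 scale.

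In wild type, AT4G17470 was 2.65-fold higher with bleomycin (rank 324), the 1 gene of the 4 past 2-fold, against a background of 5.50% of measured probe sets that far above and 8.39% that far below. The other 3 genes were within 2-fold: the log2 difference was -0.06 for AT5G23830, -0.09 for AT1G14960 and -0.46 for AT3G26460. The median of the 4 genes was -0.07, against 0.00 for all measured probe sets. The 2 genotypes' responses share no array. The difference between them, ku80 minus wild type, lay between 2.19 and 2.72 on the log2 scale for the 4 genes (AT3G26460 lowest, AT4G17470 highest). It was at least 1 for all 4 genes, and for 5.43% of measured probe sets, with 5.35% at -1 or below. This difference uses all 4 arrays, leaves no residual and was not tested.

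**Figure D2:**
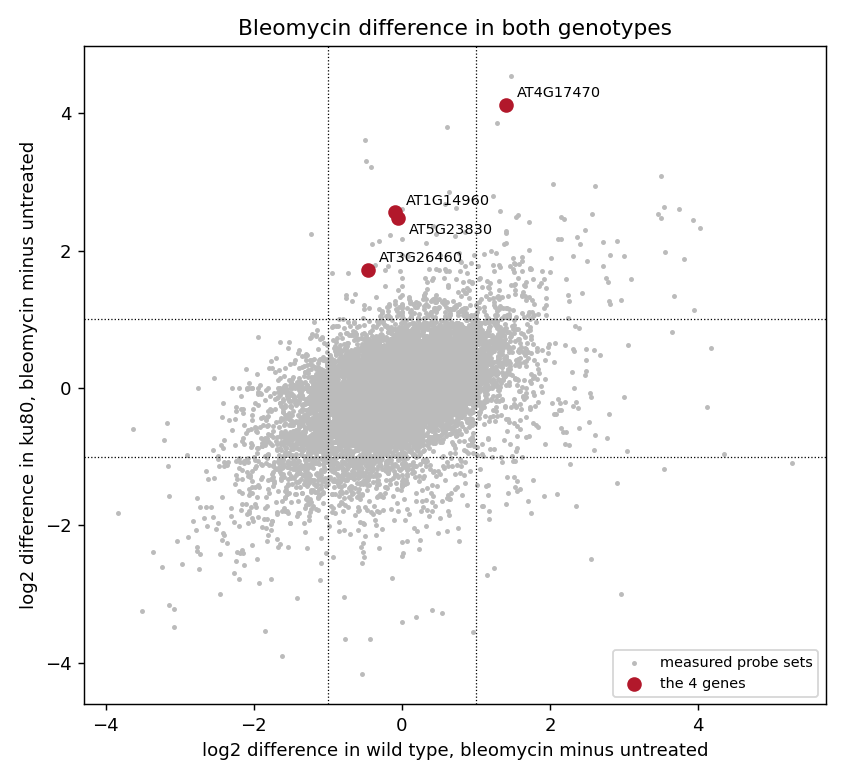
Log2 difference of bleomycin minus untreated in ku80 (vertical axis) and in wild type (horizontal axis) for the 15334 measured probe sets (grey) and the 4 genes (red); dotted lines mark 2-fold. All 4 genes lie above the upper line in ku80, and only AT4G17470 (2.65-fold) also lies past 2-fold in wild type.

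Without bleomycin, 3 of the 4 genes were at least 2-fold lower in ku80 than in wild type, where 2.09% of measured probe sets were at least 2-fold lower and 2.53% higher. This count, too, follows from how the genes were chosen. AT4G17470 was 7.72-fold lower in ku80 (log2 -2.95), AT1G14960 7.70-fold lower (log2 -2.94) and AT3G26460 5.58-fold lower (log2 -2.48). Their ranks counted from the lowest difference were 2, 3 and 8. AT5G23830 was 1.93-fold lower (log2 -0.95) and did not reach 2-fold. This comparison shares the array of untreated ku80 with the drug comparison within ku80, so a low reading on that array lowers the one and raises the other.

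With bleomycin, AT4G17470, AT1G14960 and AT3G26460 were close in the 2 genotypes. Their log2 differences, ku80 minus wild type, were -0.23, -0.30 and -0.29, that is 1.17-fold, 1.23-fold and 1.22-fold lower in ku80. For AT1G14960 and AT3G26460 treated ku80 was high only against untreated ku80, since both wild type arrays were higher. For AT4G17470 it was also above untreated wild type (849 against 376). AT5G23830 was 3.01-fold higher in treated ku80 than in treated wild type (log2 1.59, rank 31), against a background of 1.87% of measured probe sets past 2-fold above and 2.35% below. The split of called probe sets in this comparison, 44.2% higher, turned to 57.2% on the deposited scale.

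Over all measured probe sets, 40 (0.261%) were at least 2-fold lower in untreated ku80 than on each of the other 3 arrays, and AT4G17470, AT1G14960 and AT3G26460 were among them. The same count was 150 (0.978%) for treated ku80, 90 (0.587%) for treated wild type and 174 (1.13%) for untreated wild type. The count was smallest for untreated ku80. Each count holds drug, genotype and array differences together, and their parts were not tested. AT5G23830 was at least 2-fold higher in treated ku80 than on each other array, as were 38 probe sets (0.248%) in all.

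The profiles of the 4 genes were compared as Euclidean distances between log2 values over the 4 arrays, each gene centred on its own mean. The 2 Bet v I-like genes were closest to each other (0.69). AT4G17470 lay 1.53 from AT1G14960 and 2.16 from AT3G26460. AT5G23830 lay 1.81 to 2.46 from the other 3 genes. These distances rest on 4 values per gene and partly on values that chose the genes, and they are given as a description.

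The wider Bet v I and MLP-like family held 24 other listed genes, of which 13 could be named on the array and 8 exceeded the floor. In ku80, 2 of these 8 were at least 2-fold higher with bleomycin and 0 were lower (2.49% and 5.61% of all measured probe sets), and the median log2 difference was 0.29. AT4G14060 stood at 58.6 in treated ku80 and below the floor in untreated ku80, and at 92.5 in treated and 105 in untreated wild type. It was at least 2.09-fold higher with the drug in ku80 and at least 3.76-fold lower in ku80 than in wild type without it. AT4G14060 therefore had the profile of the 2 chosen Bet v I-like genes, low in untreated ku80 only. AT4G23680 gave 1484 and 673 in treated and untreated ku80, and 1832 and 1053 in treated and untreated wild type, and was higher with the drug in both genotypes (log2 1.14 and 0.80).

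Of the other measured relatives, AT4G23670 (860) and AT3G26450 (157) were also lowest in untreated ku80, but within 2-fold of every other array. AT1G23130 was lower in ku80 with and without bleomycin, at 156 in treated ku80 against 423 in treated wild type and at 207 in untreated ku80 against 668 in untreated wild type. AT1G23120 stood at 95.9 and 159 in treated and untreated ku80, and at 159 and 118 in treated and untreated wild type, with a difference of responses of -1.16. AT4G23670 and AT3G26450 had log2 drug differences of 0.30 and 0.29 in ku80. AT5G28010 was lowest in untreated ku80 too, below the floor at 25.1, so its difference of 0.41 is a lower bound. AT1G14950 was below the floor on both ku80 arrays, so its difference of 0.00 was set by the floor. In wild type, 0 of the 8 were past 2-fold in either direction (5.50% of all measured probe sets higher and 8.39% lower), with a median of 0.30. Without bleomycin 2 of the 8 were at least 2-fold lower in ku80 and 0 were higher (2.09% and 2.53% of all measured probe sets), with a median of -0.44.

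Of the 7 other listed genes of the ML domain family, 5 were named and measured. In ku80, 2 of the 5 were at least 2-fold higher with bleomycin and 0 lower (2.49% and 5.61% of all measured probe sets), with a median of 0.37. In wild type 1 of 5 was higher and 0 lower (5.50% and 8.39% of all measured probe sets), with a median of 0.64. AT5G23840, next to AT5G23830 in gene order, stood at 203 in treated ku80 and at 1.80, far below the floor, in untreated ku80. In wild type it was at 81.0 with the drug and 52.0 without it. It was at least 7.25-fold higher with bleomycin in ku80, 1.56-fold higher in wild type, and 2.50-fold higher in treated ku80 than in treated wild type. Both genes of this neighbouring pair were thus highest in treated ku80. AT2G16005 (ROSY1, named for binding a synaptotagmin) stood at 148 and 55.3 in treated and untreated ku80, and at 123 and 127 in treated and untreated wild type, low in untreated ku80 only. AT3G11780 was higher with bleomycin in wild type (1192 against 531, log2 1.17) and by 0.37 in ku80. AT3G44100 differed by 0.22 in ku80 and 0.72 in wild type, and AT5G06480 was above the floor in untreated wild type only.

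The palmitoyl-protein thioesterase list held 6 other genes, all named on the array, of which 3 were measured. None of these 3 was past 2-fold with bleomycin in either genotype. Of all measured probe sets, 2.49% were higher and 5.61% lower in ku80, and 5.50% and 8.39% in wild type. With 3 genes nothing is read from this count. AT3G60340 stood at 129 in treated ku80, 66.2 in untreated ku80, 168 in treated wild type and 137 in untreated wild type, again lowest in untreated ku80 (log2 -1.05 against untreated wild type). Its log2 drug difference in ku80 was 0.96, and 1.01 on the deposited scale. AT5G47330 lay above the floor in both wild type arrays only (39.6 treated, 34.7 untreated) and AT5G47340 in untreated ku80 only (28.6). AT4G17480, the gene next to AT4G17470, and AT4G17483 were below the floor on all 4 arrays, so the tandem relatives of AT4G17470 gave no measured level.

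Among the other genes next to the members in gene order, AT3G26450, a Bet v I relative beside AT3G26460, varied by less than 2-fold, at 192 and 157 in treated and untreated ku80 and 257 and 223 in treated and untreated wild type. AT3G26470, on its other side, was higher with bleomycin in both genotypes: it stood at 157 and 73.1 in treated and untreated ku80, and at 216 and 65.7 in treated and untreated wild type. AT1G14950, beside AT1G14960, passed the floor in untreated wild type only (28.8), and AT1G14970 on no array.

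**Figure D3:**
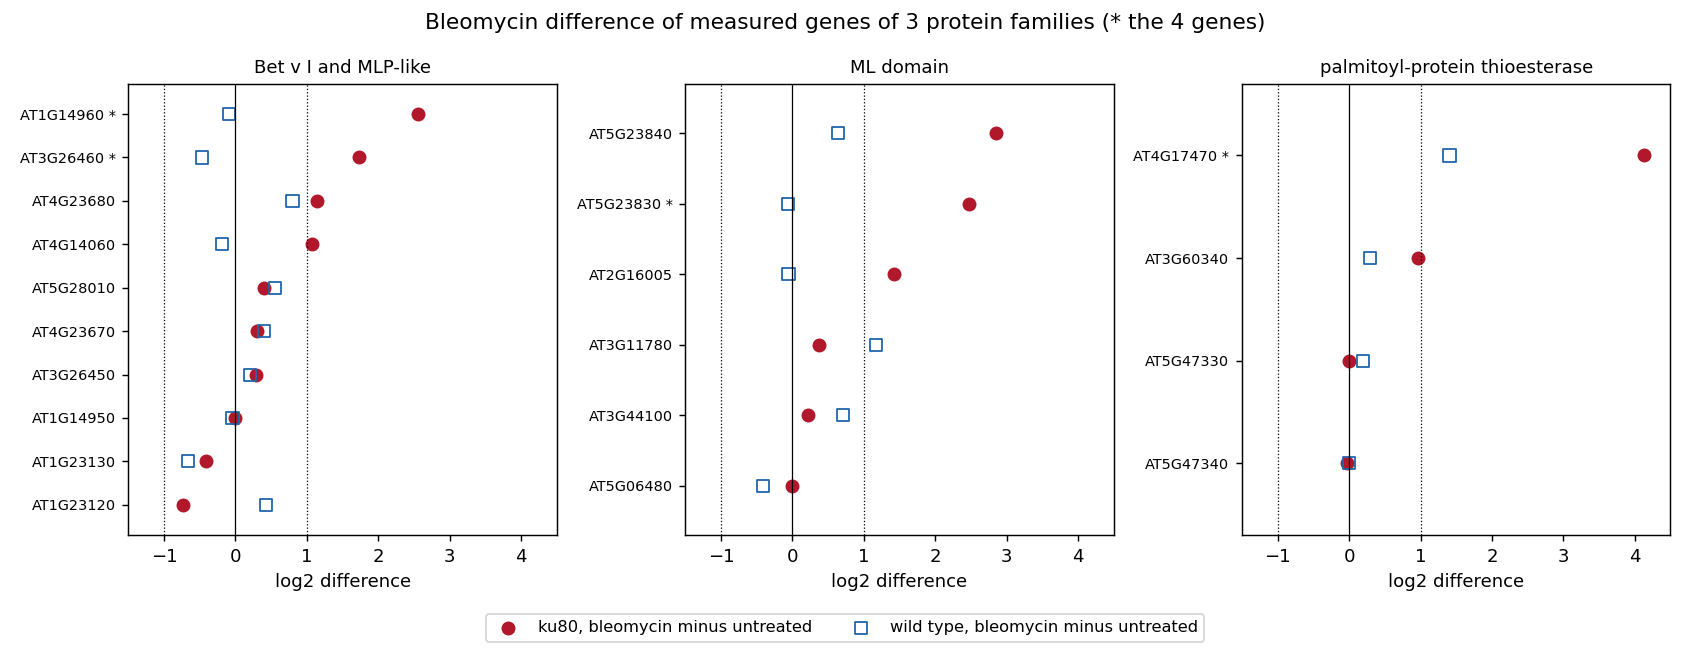
Log2 difference of bleomycin minus untreated in ku80 (filled circles) and wild type (open squares) for each measured gene of 3 protein families, 1 row per gene with the 4 chosen genes starred; dotted lines mark 2-fold and values with the low array below the floor of 28.0 are lower bounds. In ku80, AT5G23840 (2.86), AT2G16005 (1.42), AT4G23680 (1.14) and AT4G14060 (1.07) are past 2-fold beside the 4 chosen genes. Where both arrays are below the floor, the plotted value of 0.00 is set by the floor.

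Acyl thioesterases of fatty acid synthesis, fixed as a contrast to the protein thioesterases, had 3 measured genes of 7 listed. In all of the comparisons, 0 of the 3 were past 2-fold. The share of all measured probe sets past 2-fold in 1 direction ran from 1.87% to 8.39% over the comparisons. The floor limited this count as well. AT4G13050 was below the floor on both ku80 arrays, and at 36.2 in treated and 30.3 in untreated wild type. FaTA was at 31.7 in treated ku80 and 28.9 in untreated wild type, and below the floor on the other arrays. Both genes lay too near the floor for a 2-fold difference, so only FATB could have been called. Nothing is read from this count either. FATB, which releases saturated fatty acids in plastids, stood at 644 and 466 in treated and untreated ku80, and at 592 and 673 in treated and untreated wild type. Lists of PYR/PYL abscisic acid receptors (14 genes, also of the Bet v I fold), acyl-CoA binding proteins (6), jasmonate genes (14) and flower and seed markers (6) had 0 genes named in the tables used and were not analysed here.

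Whole plants hold roots and shoots in proportions that may differ between pools, so markers of both were read beside the 4 genes. Of 28 root markers, 10 were named and measured. PYK10, a beta-glucosidase of root ER bodies, stood at 2195 and 1935 in treated and untreated ku80, and at 2487 and 1791 in treated and untreated wild type. The summed intensity of the other 9 was 273 in treated ku80, 383 in untreated ku80, 343 in treated wild type and 669 in untreated wild type. These sums include values below the floor. Single root markers differed in direction, though 6 of the 10 were highest in untreated wild type. Of the others, 3 were highest in treated wild type, 1 in untreated ku80 and 0 in treated ku80. AT3G49960 was below the floor, near 0, on 3 arrays and at 62.0 in untreated wild type. AT4G26010 stood at 15.2 and 49.7 in treated and untreated ku80, and at 49.7 and 238 in treated and untreated wild type. AT1G49570 was highest in untreated ku80, at 111 against 57.5 in treated ku80, 51.6 in treated wild type and 31.4 in untreated wild type. JAL33 was higher with the drug in both genotypes (log2 0.87 in ku80 and 0.52 in wild type). Of the 10 root markers, 4 were above the floor in treated ku80 and 6 in untreated ku80. In treated wild type 7 were, and in untreated wild type 9. With the drug, 0 of the 10 were past 2-fold in ku80 (2.49% of all measured probe sets higher and 5.61% lower). This count was partly set by the floor. AT3G49960, EXPA7, GH9C1 and EXPA18 were below the floor on both ku80 arrays and could not be called. AT4G26010 was below it in treated ku80, so its fold is a bound, at least 1.78-fold lower with the drug. In wild type 0 were higher and 2 lower with it (5.50% and 8.39%). Without bleomycin 1 was higher and 2 lower in ku80 than in wild type (2.53% and 2.09%). With bleomycin 0 differed that far between the genotypes (1.87% and 2.35%). The floor limited this count too: AT4G26010 was at least 1.78-fold lower in treated ku80, and AT3G49960, GH9C1 and EXPA18 were below the floor on both treated arrays. Of 26 leaf photosynthesis markers 3 were named, RCA, LHCB4.1 and PSAE-1. They summed to 4066 and 5970 in treated and untreated ku80, and to 6208 and 5291 in treated and untreated wild type. PSAE-1 was 2.30-fold lower in treated ku80 than in treated wild type (1065 against 2448), where RCA and LHCB4.1 were at log2 -0.23 and -0.44. In both drug comparisons and without bleomycin 0 of the 3 were past 2-fold, against the shares given for the root markers.

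Among the 8351 measured probe sets with 1 gene, the 5 genes with the profile most like each of the 4 were named by the same distance. The rest of the 15334 measured probe sets were not candidates, so the order given as closest holds only among named genes. Closest to AT4G17470 were AT4G22610 (1.25), a gene of the lipid-transfer protein superfamily, then AT1G14960, AT4G30670, the glutathione transferase gene GSTU26 and AT5G38030, a transporter gene of the MATE type (1.82). AT4G22610 stood at 581 and 41.8 in treated and untreated ku80, and at 272 and 178 in treated and untreated wild type. Even the closest gene was thus farther from AT4G17470 than the 2 Bet v I-like genes were from each other.

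Closest to AT1G14960 was AT3G26460, followed by AT3G20370 (0.80), GSTU26 (0.88), AT4G30670 (0.89) and AT5G37990 (0.96), a methyltransferase gene of the SABATH family. AT3G20370 stood at 312 and 66.7 in treated and untreated ku80, and at 247 and 277 in treated and untreated wild type. Closest to AT3G26460 was HIS1-3 (0.44), the drought-linked linker histone gene, followed by AT4G14060 of its own family (0.52), AT2G18210 (0.55), AT5G38020 (0.61), also of the SABATH methyltransferases, and AT4G29270 (0.62), an acid phosphatase-like gene. AT5G38020 stood at 553 and 181 in treated and untreated ku80, and at 584 and 583 in treated and untreated wild type.

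Closest to AT5G23830 was its neighbour AT5G23840 (0.57), then AT4G16563 (0.64), an aspartyl protease gene, AT1G03440 (0.67), a leucine-rich repeat gene, AT5G35940 (0.76), a jacalin-type lectin gene, and AT3G14560 (0.77). AT5G35940 was above the floor in treated ku80 only, at 107. With Pearson correlation in place of distance, over the same 4 arrays, the genes named were mostly others: AT3G26460 kept 2 of its 5, AT4G17470 kept 1, and AT1G14960 and AT5G23830 kept 0. With 4 arrays many genes share a shape, and the likeness is given as a description.

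**Figure D4:**
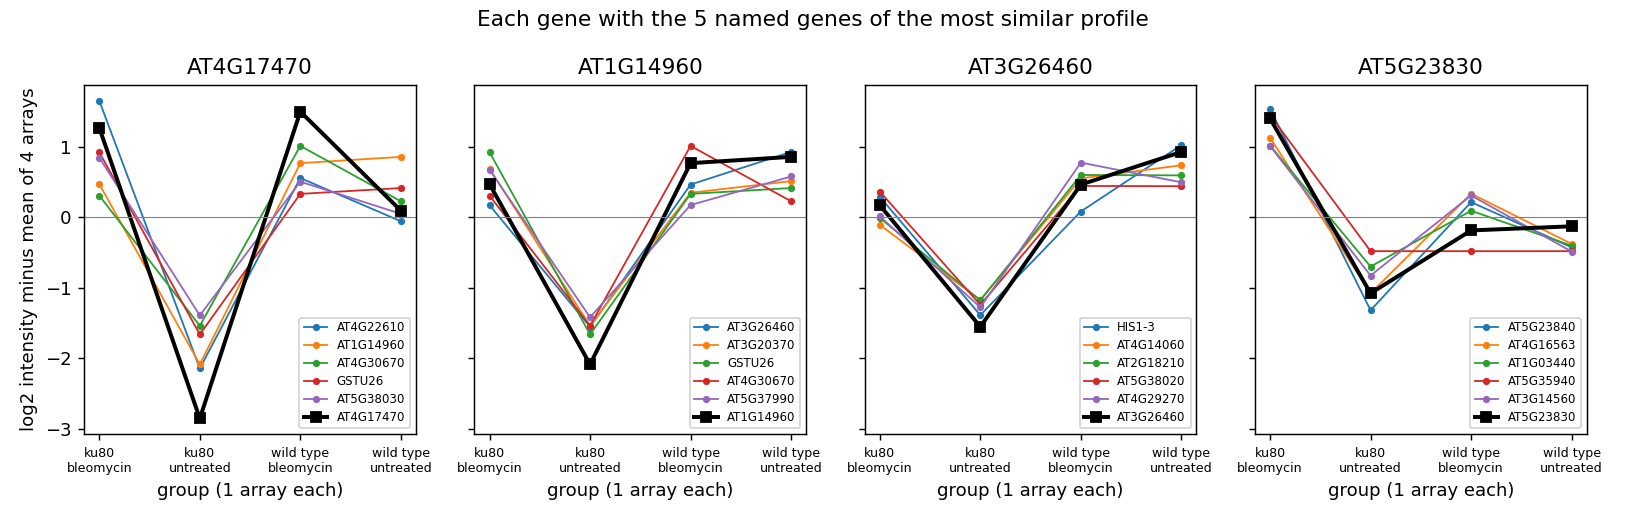
Log2 intensity minus the gene's own mean over the 4 arrays, for each of the 4 genes (black squares) and the 5 named genes of smallest distance to it (coloured circles); lines join the values of 1 gene across arrays and carry no order. All profiles in the panels of AT4G17470, AT1G14960 and AT3G26460 are lowest in untreated ku80, and all in the panel of AT5G23830 are highest in treated ku80.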

How the data were processed

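The authors deposited a linear intensity for each of 22810 probe sets on each of 4 ATH1 arrays, per the labels hybridised with biotin-labelled cRNA. With 2% of values trimmed at both ends, every array averaged 100.01, so the authors had scaled the intensities before deposit. The software and its background correction are not given in the sources used here. The 64 control probe sets were set aside. Each array was divided by its median ratio to the geometric mean over the brighter 50% of probe sets, a floor was set at the 40th percentile, and log2 was taken. Where the lower value lies at the floor, the fold is given as "at least".

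Of the 22746 probe sets, 13513 had 1 gene in the platform table and 13436 of these matched the RefSeq gene table (TAIR10.1), which was also used for gene order. With 1 array per group there was no test. Precision is limited by the number of arrays. The calculation (Python 3.11.15, pandas 2.3.3) was tested on simulated data. The 4 genes and all lists were chosen with earlier results of these data known. Genes named in the text are the 4 genes, measured relatives and neighbours, other listed genes as examples, and the 5 nearest profiles per gene. Other scalings, floors and a 3-fold threshold were tried.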

Additional observations from a re-analysis of the deposited data

How the results depend on the processing

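With 1 array per group no replicate could be left out. No paired analysis was possible because each group held 1 array. Under 6 alternatives, 118 of 120 values of the 4 genes kept their direction and their side of the fold threshold. The exceptions were AT3G26460 in the ku80 drug comparison, at 0.64 with the floor at the 60th percentile, where its untreated value is below the floor, and AT4G17470 in the wild type drug comparison, at 1.405 (2.65-fold), which is under the 3-fold threshold. No called value reversed. Part of this sameness was fixed in advance. The 20 values with the floor at the 20th percentile could not change, because all 4 genes lay above the main floor on every array. The 3-fold threshold leaves the values as they are, so only their side of the threshold could change there. Counts of probe sets moved by over 1.5 times as follows, higher first where both moved. With the floor at the 20th percentile they were 679 and 1337 for bleomycin in ku80, 1550 higher for bleomycin in wild type, 651 and 585 for ku80 against wild type without the drug, 599 and 709 with it, and 1445 and 1720 for the difference of responses. With the floor at the 60th percentile they were 243 and 541, 677 lower, 254 and 160, 141 higher, and 411 higher, for the same comparisons in the same order. At 3-fold they were 118 and 234, 214 and 344, 173 and 85, 31 and 94, and 162 and 269. Fewer probe sets pass a higher floor or fold by construction. On the deposited scale 62.8% of calls for the difference of responses were higher, against 50.4% after scaling. For relatives, AT4G14060 (1.07, ku80 drug comparison) had no difference left with the higher floor (0.00), and AT5G23840 in untreated ku80 against untreated wild type, at -0.89 as a bound, lay at -2.45 with the lower floor, -2.39 with no floor, -0.81 with quantile normalization and 0.00 with the higher floor, where both values are under it.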

Other observations

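By Pearson correlation over the 4 arrays, NAI1 (AT2G22770), the regulator of ER body formation, was among the 5 genes most like each of the 2 Bet v I-like genes. It stood at 60.01 and 29.7 in treated and untreated ku80, and at 63.3 and 71.8 in treated and untreated wild type. JAL34 (AT3G16460), a jacalin-related lectin gene, was among the 5 for AT5G23830, at 1211 and 584 in treated and untreated ku80, and 692 and 722 in treated and untreated wild type. NAI1 and JAL34 are given as values, since a correlation over 4 arrays is no finding.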
